A study of Mus musculus with 3 samples.

Results

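The genes that encode the MEIS, PBX and PREP cofactors were examined for binding of NKX2-5 in the embryonic mouse heart. They were chosen by name, as Meis1, Meis2, Meis3, Pbx2, Pbx3, Pbx4, Pknox1 and Pknox2, 8 of the 22350 protein-coding genes that GENCODE M1 places on the chromosomes with peaks. A binding region, hereafter a peak, was assigned to a gene when its midpoint lay in the gene or within 100 kb of either end of it. By this rule 9 of 4418 peaks of the library S1 and 11 of 5441 peaks of the library S4 belonged to these loci, and they lay near 5 of the 8 genes. S1 and S4 are chromatin immunoprecipitation (ChIP-seq) libraries made with an NKX2-5 antibody from whole hearts of wild-type Parkes embryos at E11.5. A library of Input DNA from the same tissue was not analysed here. Both libraries stand for 1 condition, the labels do not say whether they came from separate pools of hearts, and a whole heart mixes myocardium with other cell types.

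MEIS, PBX and PREP proteins are homeodomain transcription factors of the TALE class, which have a longer loop in the homeodomain than other families. PREP proteins, encoded by the Pknox genes, and MEIS proteins bind sites with a TGACA core. Both form dimers with PBX proteins on DNA, often together with HOX factors, and this partnership adds a half-site to the sequence that is recognised. MEIS1 is known in the heart for its part in outflow tract development and in the exit of cardiomyocytes from the cell cycle after birth. The data below address where NKX2-5 lay at the genes that encode these cofactors.

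Both libraries had NKX2-5 peaks at transcript starts of Meis1 and Meis2 and in an intron of Meis2, and S4 alone had peaks in introns of Meis1. The windows of Meis1, Meis2 and Pbx4 held all 6 regions in which peaks of both libraries overlapped by at least 1 bp. Around Pbx2 and Pbx4 every peak lay at or in a neighbouring gene. Pbx3 had a single peak in S1, and no peak of either library lay within 100 kb of Meis3, Pknox1 or Pknox2. Merging the 2 lists gave 14 regions, 6 in both libraries, 3 in S1 alone and 5 in S4 alone. Of these, 8 lay within Meis1, Meis2 or Pbx3 or at their starts, and the other 6 lay outside the gene whose window held them.

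**Figure D1:**
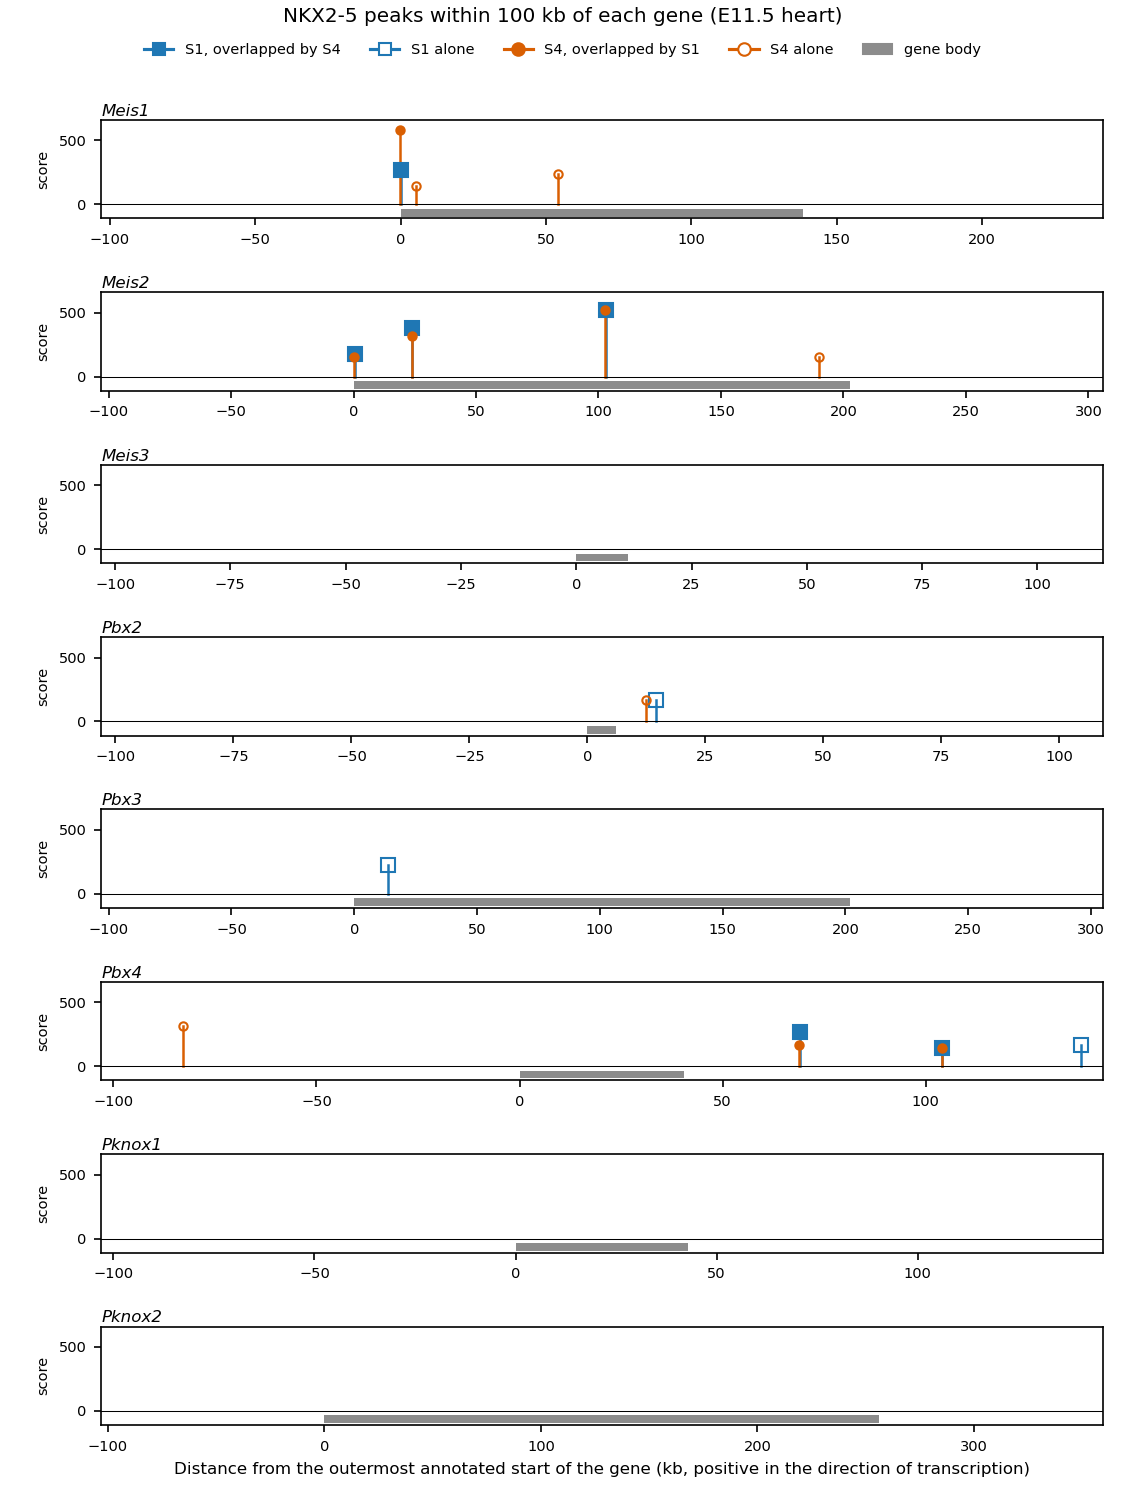
Each panel is one gene with 100 kb on either side. The x axis is the distance in kb from the outermost annotated start, the y axis is the score of the peak caller, blue squares are S1 peaks, orange circles are S4 peaks, filled symbols are peaks overlapped by the other library and the grey bar is the gene body. Filled symbols stand over Meis1, Meis2 and the downstream side of Pbx4, and the panels of Meis3, Pknox1 and Pknox2 are empty.

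The sequences that carry these regions are shown first, because the starts of Meis1 and Meis2 had a stretch in common. Each of the 2 regions held an exact match to a 10-base composite site, in which a PBX half-site runs into the TGACA core read by MEIS and PREP proteins. In both genes the match lay in the 5′ UTR on the sense strand, and a further TGACA lay 10 bases before it. The composite site and that TGACA are in capitals below, 5′ to 3′ along the sense strand of each gene in mm9.
Meis1, chr11:18918617-18918646, minus strand: TGACAacctcgcctgTGATTGACAGctgga
Meis2, chr2:115890995-115891024, minus strand: TGACAttccgggcttTGATTGACAGctgga

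The match lay 330 bp downstream of the outermost start of Meis1 and 566 bp downstream of that of Meis2. The 2 genes were identical over the composite site and the 11 bases that follow it, an unbroken run of 21 bases. With 50 bases on each side of the site, 77 of 110 bases were identical (70.0%). With 100 on each side the share was 48.6%, lower than close to the site. The comparison allowed no gaps, and an insertion or deletion in either gene would lower the share. Exact matches to the composite site were rare in the series, in 13 of 2546 shared stretches (0.511%) and in 0.216% of stretches of the same length 2 kb to either side. Within 100 bp of the midpoint the order was the other way, with 0.0393% of shared regions (1 of 2546) against 0.0786% of windows 2 kb away (4 of 5092). Within 1 kb of the outermost start the composite site was found in 186 of 22350 protein-coding genes (0.832%), and Meis1 and Meis2 were the members among them. These matches describe the sequence under the peaks. They lay 230 bp (Meis1) and 198 bp (Meis2) from the midpoint of the shared stretch, and the Meis2 site ended 5 bp inside its edge.

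At Meis1, S1 had a peak at chr11:18918426-18919288 with a score of 269, and S4 had one at chr11:18918337-18919855 with a score of 584. The score was read, from its values, as −log10 of a p-value assigned by the peak caller, multiplied by 10, and the settings of the caller are not given in the sources used here. Scores were not put on a common scale for S1 and S4, and sequencing depth is unknown for both. The S1 peak of 863 bp lay wholly inside the S4 peak of 1519 bp, a width reached by 2.78% of the S4 peaks. The stretch covered by both included 3 of the 4 annotated starts of Meis1. S4 extended a further 567 bp upstream, a part that held 3 matches to AAGTG, the core bound by NKX2-5, and 1 to AAGTGACA, in which that core and the MEIS core overlap.

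The score of S4 was 2.17 times that of S1 at the Meis1 start (log2 ratio 1.12). Over all shared regions the median log2 ratio was 0.16, with 10th and 90th percentiles of -0.65 and 1.03. A ratio at least as high was found in 8.41% of the shared regions. The lower of the 2 scores ranked 1087 of 2546.

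In the stretch covered by both peaks, Meis1 held 1 match to the longer NKX2-5 core TNAAGTG, shown here with the AAGTG part in capitals (as its reverse complement), since it runs over the annotated start at chr11:18918925. Such a match is common. TNAAGTG was present in 54.7% of all shared stretches and 31.7% of stretches of the same length 2 kb away. It was found within 1 kb of the outermost start in 61.6% of protein-coding genes. The sequence just before the outermost start, inside both peaks, held no AAGTG or TGACA and is shown in lower case.
Meis1 start, chr11:18918914-18918943, minus strand: ctgtgcaacacaCACTTtacacacgcacgg
Meis1 upstream, chr11:18918962-18919161, minus strand: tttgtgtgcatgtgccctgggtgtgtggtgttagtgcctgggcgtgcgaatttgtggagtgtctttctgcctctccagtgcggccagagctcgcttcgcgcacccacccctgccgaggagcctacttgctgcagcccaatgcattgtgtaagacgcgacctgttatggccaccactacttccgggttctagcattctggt

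S4 had 2 further peaks in introns of Meis1 that S1 lacked. The first, at chr11:18864415-18864900 with a score of 239, lay 54.3 kb downstream of the outermost start and 53.5 kb from the nearest S1 peak. It was among the narrower peaks, since 96.5% of the S4 peaks were at least as wide as its 486 bp. The second, at chr11:18913261-18913882, had a score of 147, which ranked 5072 of 5441, and lay 1.57 kb upstream of an internal start. The intronic peak with the higher score held 2 matches to TNAAGTG and none to TGACA. One of the 2 is in capitals in the middle of that peak, which is printed as the strongest Meis1 signal away from the start.
Meis1 intron, chr11:18864557-18864757, minus strand: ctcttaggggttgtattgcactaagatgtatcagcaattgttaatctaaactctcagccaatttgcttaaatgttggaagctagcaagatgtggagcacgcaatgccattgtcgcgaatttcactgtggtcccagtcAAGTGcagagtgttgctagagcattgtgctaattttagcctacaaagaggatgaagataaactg

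Meis2 had 3 regions shared by both libraries, the largest number of the 8 genes. All 3 lay inside the gene, which is 203 kb long and has 15 annotated starts. Of all protein-coding genes, 2.07% had at least 3 shared regions within 100 kb, and among the 2399 genes of at least 100 kb the share was 4.42%. For shorter genes the share was 1.74% under 25 kb and 1.89% from 25 to 100 kb. The windows of longer genes are wider, and whether this accounts for the higher share was not tested.

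Of the 3 Meis2 regions, the one with the highest scores lay in an intron, 102.9 kb downstream of the outermost start. The S1 peak at chr2:115788219-115788827 scored 522.2 and the S4 peak at chr2:115788467-115789181 scored 522.6. The scores were nearly equal, and they ranked 502 of 4418 in S1 and 683 of 5441 in S4. The overlap of 361 bp made up 59.3% of the S1 peak and 50.5% of the S4 peak, with midpoints 301 bp apart. The median distance between midpoints over all shared regions was 79 bp. The shared stretch held 2 matches to TGACA, which are in capitals as their reverse complements, and none to AAGTG. The middle of the stretch is shown because it is the shared region with the highest lower score among the 8 genes.
Meis2 distal intron, chr2:115788547-115788747, minus strand: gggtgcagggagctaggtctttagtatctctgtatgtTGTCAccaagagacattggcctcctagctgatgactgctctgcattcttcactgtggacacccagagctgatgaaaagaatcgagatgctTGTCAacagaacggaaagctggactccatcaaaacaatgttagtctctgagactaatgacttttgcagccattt

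The next Meis2 region lay over an internal start at chr2:115867782, 23.8 kb downstream of the outermost one. The S1 peak at chr2:115867429-115868152 scored 378, and the S4 peak at chr2:115867261-115868047 scored 320. Of the 15 annotated starts of Meis2, this was the only one inside a shared stretch. The stretch of 619 bp held 3 matches to TGACA, 1 of them over the start itself, and 2 to AAGTG. The match to TNAAGTG lay 7 bp from the midpoint of the stretch, and the AAGTG part is in capitals as its reverse complement.
Meis2 internal start, chr2:115867717-115867746, minus strand: actctccacaacCACTTgaaaacatcatca

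The Meis2 region with the lowest scores held the composite site shown above. The S1 peak at chr2:115890771-115891412 scored 178, and the S4 peak at chr2:115890995-115891530 scored 155. Its midpoint lay in the 5′ UTR of the first exon, 372 bp downstream of the outermost start, which no peak covered. The shared stretch held 3 matches to TGACA, 2 of them in the 30 bases printed above, and none to AAGTG. The order of the scores was therefore the same in both libraries, highest in the distal intron, then at the internal start, and lowest near the first exon. The log2 ratios of S4 to S1 were 0.00, -0.24 and -0.20, inside the 10th to 90th percentiles of all shared regions. A peak of S4 alone, at chr2:115701342-115702026 with a score of 152, lay 190 kb downstream of the outermost start and 2.99 kb upstream of another internal start.

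**Figure D2:**
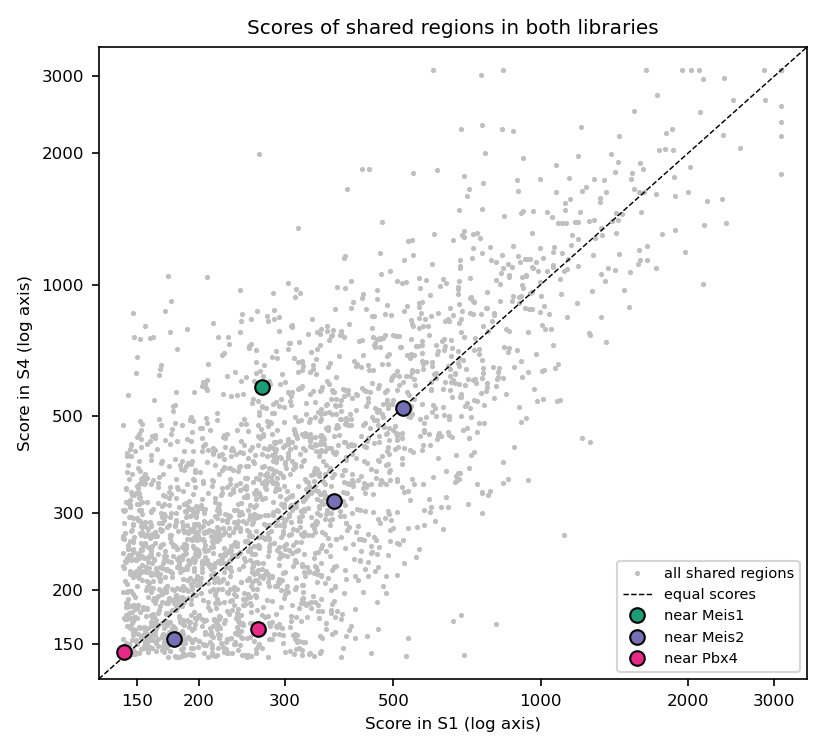
Each point is a shared region, with its S1 score on the x axis and its S4 score on the y axis, both logarithmic. Grey points are all 2546 shared regions, coloured points are the 6 regions near Meis1, Meis2 and Pbx4, and the dashed line marks equal scores. The Meis1 region lies above the line with 269 in S1 and 584 in S4, the Meis2 regions lie close to it, and a Pbx4 region sits in the lower left corner near 140 in both.

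Meis1 and Meis2 were the members with a shared stretch over an annotated start, 2 of 8. Among all protein-coding genes 287 of 22350 had one, 1.28%. Genes with more annotated starts have more chances to be counted, and the number of starts ranged from 1 at Meis3 and Pknox1 to 15 at Meis2. With so few genes this is a description of Meis1 and Meis2, not of the family.

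Meis3, a paralogue of Meis1 and Meis2, had no peak within 100 kb in either library. The nearest S1 peak lay 247 kb from the gene and the nearest S4 peak 213 kb. Meis3 is 11.1 kb long, and 8 other protein-coding genes had a start in its window.

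Of the PBX genes, Pbx3 had a peak of S1 at chr2:34214802-34215392 with a score of 228, in an intron 13.6 kb downstream of the outermost start. The nearest S4 peak had its midpoint 231 kb from the gene and lay 244 kb from the S1 peak. The S1 peak held 5 matches to AAGTG and 3 to TGACA. For regions in both libraries the shared stretch was searched, not the whole of each peak, except that the upstream part of the S4 peak at Meis1 was searched too. Within what was searched, this S1 peak alone had a match to GTGNTGACA. In that motif the end of the NKX2-5 core and the MEIS core stand 1 base apart. Here the NKX2-5 core of that pair was complete, and a second copy lay beside it, as shown in capitals on the minus strand, where the cores read TGTCA and CACTT.
Pbx3 intron, chr2:34214849-34214977, minus strand: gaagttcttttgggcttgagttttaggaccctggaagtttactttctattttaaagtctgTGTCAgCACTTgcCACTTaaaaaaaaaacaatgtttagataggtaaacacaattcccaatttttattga
The pair lay 184 bp from the midpoint of the peak, outside the 100 bp on each side that were searched in all regions. It was found in 15.4% of all shared stretches, against 2.79% of stretches of the same length 2 kb away.

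Around Pbx2 each library had a peak of nearly equal score, but the peaks did not overlap. The S4 peak at chr17:34740339-34741083, with a score of 166, lay 76 bp upstream of Rnf5, which encodes a ubiquitin ligase. The S1 peak at chr17:34742461-34742998, with a score of 168, lay 77 bp upstream of a start of Agpat1, which encodes an enzyme of phospholipid synthesis. A gap of 1.38 kb separated them. Pbx2 itself ended 6.37 kb from the midpoint of the S4 peak and 8.38 kb from that of the S1 peak, and 13 other protein-coding genes had a start in its window. Neither peak held the composite site or TNAAGTG.

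Pbx4 had 3 peaks of each library within 100 kb, none of them in the gene. The S1 peak at chr8:72425193-72426042 (score 264) and the S4 peak at chr8:72424989-72425757 (score 162) overlapped by 565 bp, with a log2 ratio of S4 to S1 of -0.70, just below the 10th percentile of all shared regions. They lay over Ndufa13, which encodes a subunit of respiratory complex I, and just upstream of Tssk6, a kinase gene of the testis. The S1 peak at chr8:72460168-72460932 and the S4 peak at chr8:72460163-72460800 overlapped in an intron of Gatad2a, which encodes a subunit of the NuRD chromatin remodelling complex. Their scores of 141 and 144 were close to the minimum of 140 in both lists and ranked 4371 of 4418 and 5211 of 5441. The 2 intervals began 5 bp apart, so these low scores fell on the same place in both libraries.

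This Gatad2a region held 6 matches to AAGTG and 1 to TGACA, the latter 1 bp from the midpoint. The middle of its stretch is printed, and it holds 2 of the AAGTG matches and the TGACA. These are in capitals, CACTT being the reverse complement of AAGTG.
Gatad2a intron in the Pbx4 window, chr8:72460384-72460584, plus strand: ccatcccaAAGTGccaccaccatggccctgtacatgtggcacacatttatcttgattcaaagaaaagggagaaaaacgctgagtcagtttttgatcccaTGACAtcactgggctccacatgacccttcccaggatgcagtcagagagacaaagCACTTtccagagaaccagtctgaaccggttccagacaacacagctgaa

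The remaining peaks of the Pbx4 window belonged to 1 library each. An S4 peak at chr8:72273300-72274218, with a score of 316, lay 102 bp downstream of the start of Zfp963, a zinc finger gene, 151 kb from the nearest S1 peak. It held the composite site too, printed here because it is the third match found in the shared stretches and the peaks of 1 library.
Zfp963 start in the Pbx4 window, chr8:72273926-72273955, plus strand: cagcgactgcTGATTGACAGcaggagctga
An S1 peak at chr8:72494415-72494949, with a score of 169, lay in Gatad2a, 3.6 kb downstream of a start of that gene.

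The PREP genes had no peak within 100 kb. At Pknox1 the nearest peaks of S1 and S4 lay 123 kb and 124 kb from the gene, and the nearest shared region lay 123 kb from it. At Pknox2, which is 256 kb long, the nearest S1 peak was 342 kb away, the nearest S4 peak 201.1 kb and the nearest shared region 1382 kb. Pknox2 had the widest window of the 8 genes, 456 kb. No peak under a score of 140 was in either list, so weaker binding could not be seen at any of these genes.

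**Figure D3:**
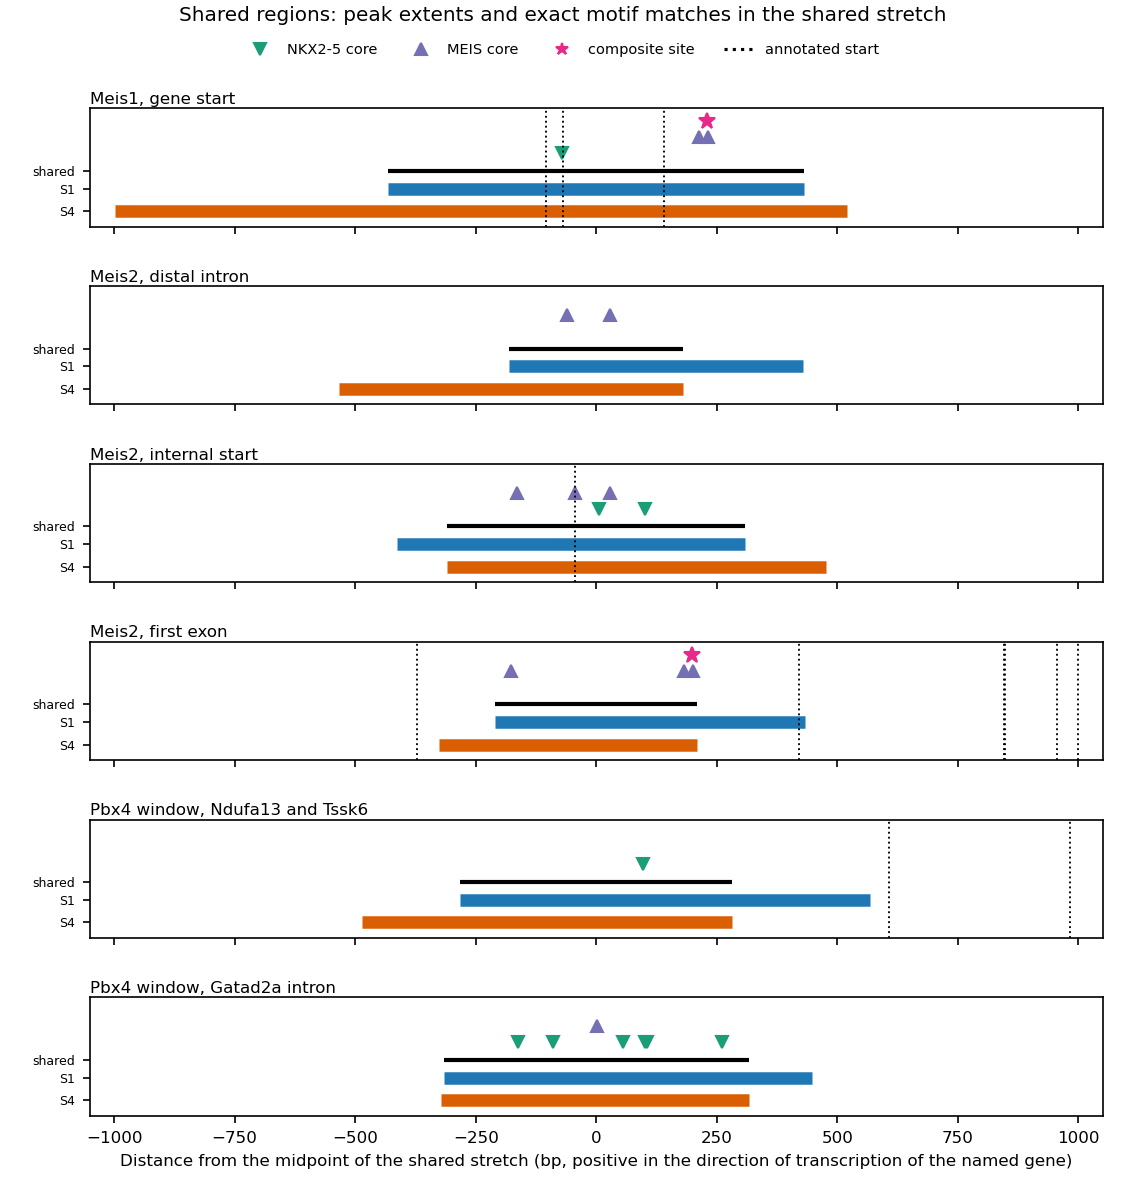
Each panel is one shared region, with the distance in bp from the centre of the shared stretch on the x axis, positive in the direction of transcription of the gene named. Blue and orange bars are the S1 and S4 peaks, the black line is the shared stretch, triangles are matches to AAGTG (pointing down) and TGACA (pointing up) within it, stars are composite sites and dotted lines are annotated starts. Stars appear at the Meis1 start and in the Meis2 first exon, and 2 TGACA cores stand at each star, 1 of them inside the site.

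The counts for the 8 genes were read against all protein-coding genes. An S1 peak lay within 100 kb of 5 of 8 members, against 38.4% of all protein-coding genes, and an S4 peak near 4 of 8, against 44.7%. A shared region lay near 3 of 8, against 24.3%. Meis1, Meis2, Pbx3 and Pknox2 are longer than 100 kb, and 36.1% of genes of at least that length had a shared region. No test over the members was made, and with 8 genes the counts are a description.

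Overlap between the libraries was read against the whole lists. Of the S1 peaks near the members, 6 of 9 were overlapped by an S4 peak (66.7%, with an exact 95% interval by Clopper-Pearson of 29.9 to 92.5 that reflects counting error alone), against 58.9% of all S1 peaks. Of the S4 peaks near the members, 6 of 11 were overlapped (54.5%, 23.4 to 83.3), against 47.0% of all S4 peaks. Both intervals include the share of the whole list. The median score near the members was 228 in S1 and 166 in S4, against 212 and 223 in the lists. Scores under 200 were found for 4 of 9 and 6 of 11 of these peaks, against 46.2% and 41.6% in the lists. When peaks under 200 were left out, 5 peaks of each library and 3 shared regions stayed, the Meis1 start and the Meis2 distal intron and internal start.

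**Figure D4:**
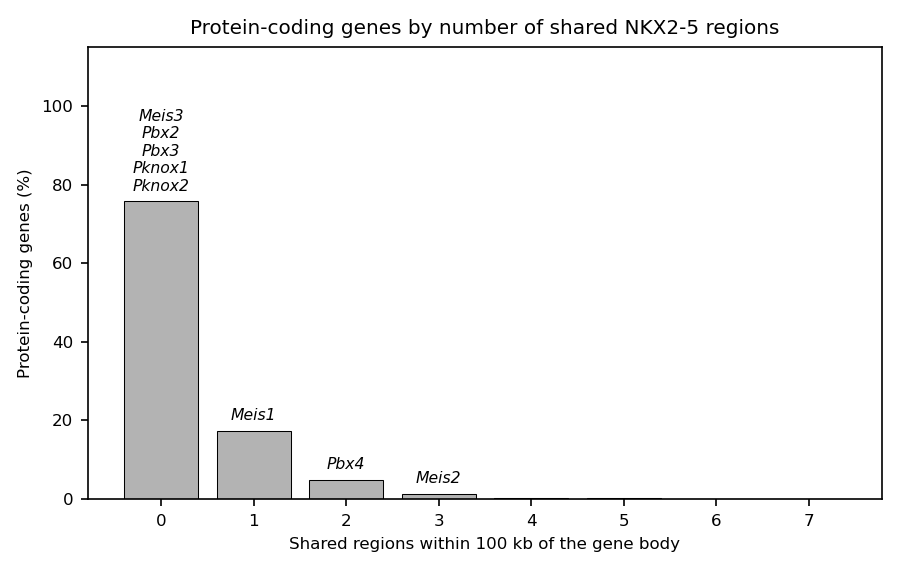
Bars give the percentage of the 22350 protein-coding genes (y axis) by the number of shared regions within 100 kb of the gene body (x axis), and the names mark the bar to which each of the 8 genes belongs. Meis2 stands with the 1.37% of genes that have exactly 3 shared regions, and 5 members stand with the 75.7% that have none.

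The motif content of the 6 shared regions was counted within 100 bp on each side of the midpoint. AAGTG was present in 4 of 6, against 64.0% of all shared regions and 39.4% of windows 2 kb away. TGACA was present in 3 of 6, against 64.5% and 40.1%. The longer forms TNAAGTG and TGACAG, which contain these cores, were present in 2 and 1 of 6, against 32.4% and 37.7% of all shared regions. GTGNTGACA, AAGTGACA, the PBX-type motif TGATTGAT and the composite site had no match in these 6 windows, and their shares over all shared regions were 9.54%, 2.32%, 0.471% and 0.0393%. Over the whole shared stretch, TGACA was present in 5 of 6 and AAGTG in 4 of 6, against 86.8% and 89.9% of all stretches. A window of 25 bp on each side left AAGTG and TGACA in 1 of 6 each. Only exact matches on either strand were counted, and a site with other letters would be missed.

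Of the other TALE homeobox genes, Irx1 to Irx6, Tgif1, Tgif2 and Mkx, 3 of 9 had a shared region within 100 kb, namely Irx4, Irx5 and Tgif2, each with 1. An S1 peak lay near 3 and an S4 peak near 5 of these 9 genes. Over all protein-coding genes the shares were 24.3% for a shared region, 38.4% for an S1 peak and 44.7% for an S4 peak. The labelled tissue was checked on genes of the heart. Tnnt2, Myh6, Actc1, Tnni3, Ryr2 and Nppa all had shared regions within 100 kb, 24 in all. Of 6 genes of other tissues, Alb, Afp, Neurod1, Myog and Hbb-b1 had no shared region, and Ins2 had 1. Having none is common, at 75.7% of all protein-coding genes, and the windows of Alb and Afp overlap. An S1 peak lay near 1 of these 6 genes and an S4 peak near 2.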

How the data were processed

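The study's methods name the Genome Analyzer IIx for sequencing, Bowtie for alignment to mm9 and MACS 1.4 for peak calling. The settings, and whether the Input served as control, are not given in the sources used here. Each ChIP library has its own list, in which the authors deposited peak positions in base pairs and a score, read from its values as −log10 of the p-value multiplied by 10. Total read numbers were not used here.

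Peaks were read as intervals counted from 1. All lay within the chromosomes of NCBIM37, which is mm9. Genes and starts were those of protein-coding genes in GENCODE M1. Overlapping pairs with a peak in common were merged into 1 shared region, and its shared stretch is that of the pair with the longest overlap. Context refers to the midpoint. Intervals are Clopper-Pearson at a level of 0.95. With 1 condition there were no groups to test. The genes, gene lists, motifs and regions were chosen with earlier results of these data known. The rule for named regions took every shared region, the top peak of each library and every peak within 5 kb of a start, and the remaining peaks of the 8 genes are given too. Sequence was to be shown for the top shared region of each gene. That of Pbx4 is not printed, and sequences beyond those of Meis1 and Meis2 were chosen after their values were seen, as were the composite site comparisons between Meis1 and Meis2. Overlap and motif searches were tested on simulated data. Python 3.11.15, numpy 2.4.6, scipy 1.17.1, pysam 0.24.0, samtools 1.23.1 and matplotlib 3.10.9 were used.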

Additional observations from a re-analysis of the deposited data

How the results depend on the processing

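Of 53 alternatives, 45 left a count within 1.5 times its value or a share within its interval, and 8 did not. Leaving out peaks that scored under 200 gave 5 peaks of S1, 5 of S4, 7 regions of either library and 3 shared regions, which follows from the filter. A window of 200 kb gave 18 peaks of S4 and 23 regions of either library, by construction of a wider interval. Without S1 or without S4 the regions of either library numbered 9 to 11 in place of 14, with 9 when S4 was left out. A motif window of 25 bp on each side gave AAGTG in 16.7% of the shared regions, a narrower search. No paired analysis was possible because there is 1 condition and no test. With 9 peaks in S1 and 11 in S4, each share rests on few regions, and the unknown depth limits what an absent peak means.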

Other observations

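The other shared regions with the composite site were listed after the Meis1 and Meis2 matches had been seen. There were 13 in all, and 6 of them, Meis1 and Meis2 included, lay within 1 kb of the nearest protein-coding start. The nearest starts of the others in that group were those of 4930442H23Rik, G3bp1, Crlf3 and Nosip. The highest scores among the 13 were at chr13:73435944-73436920, 29.5 kb from the start of Ndufs6, with 1422 in S1 and 1458 in S4. This is also the shared region counted above for Irx4, and its midpoint lay 29.4 kb from that gene.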
